A study of Mus musculus with 2 samples.

Results

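The genes described here are 10 genes used as markers of spleen macrophages: Vcam1, Adgre1, Mrc1, Mertk, Axl, C1qa, C1qb, C1qc, Spic and Hmox1. They were followed in 2 small RNA libraries of mouse spleen (strain C57BL/6J), 1 from cells with high and 1 from cells with low surface Ia, the MHC class II molecule. Both populations were first enriched for CD11c on beads and then sorted by Ia to a stated purity above 95%, and the labels call both dendritic cells. No treatment or genotype other than the strain, and no age or number of animals, is stated in the labels, and the spleens may have been pooled. The libraries were made from gel-purified small RNA, stated as under 30 bases although some sequences were longer, so an mRNA appears as short pieces of itself. A piece (a tag) of 20 to 30 nt was counted for a gene when it was identical, in sense, to GENCODE M21 transcripts of that protein-coding gene and of no other gene. All 10 genes had such tags, out of 11732 protein-coding genes with at least 1. They held 448 of the 320140 assigned tags of the Ia_high library and 116 of the 132375 of the Ia_low library.

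Macrophages of the spleen clear aged red blood cells, apoptotic cells and blood-borne particles. The red pulp macrophage recycles the iron of heme and depends on the transcription factor Spi-C, and it carries VCAM-1 and F4/80 on its surface. C1q, made largely by macrophages, starts the classical complement pathway and coats dying cells, while MERTK and AXL are receptor kinases that recognise such cells through bridging proteins. None of these genes is exclusive to macrophages: F4/80 is also found on monocytes, and VCAM-1 on stromal and endothelial cells.

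On GRCm38, per GENCODE M21, the genes lie at chr3:116109949-116129688 (Vcam1, minus strand), chr17:57358691-57483527 (Adgre1, plus), chr2:14229392-14332057 (Mrc1, plus), chr2:128698956-128802894 (Mertk, plus) and chr7:25757273-25788705 (Axl, minus). C1qa, C1qc and C1qb lie side by side on the minus strand at chr4:136895917-136898803, chr4:136889804-136893065 and chr4:136880129-136886187, Spic at chr10:88674772-88685015 (minus) and Hmox1 at chr8:75093621-75100589 (plus).

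The tags that carry the comparison are shown first, as DNA letters from 5′ to 3′. Capitals mark bases that tags of the same gene in the other library also covered, so a tag in lower case had no counterpart there. For Vcam1, the most-read Ia_high tag is followed by the 4 Ia_low tags that lie on its main transcript; the remaining Ia_low tag, of 1 read, matched another transcript.
Vcam1, Ia_high, 25 reads: aagaaagggagactgtcaaagaact
Vcam1, Ia_low, 11 reads: TTACAGCCCCGCCCCCTCCACAaacc
Vcam1, Ia_low, 10 reads: ATTCAGACTTCCCAGAACCCT
Vcam1, Ia_low, 10 reads: ttaaaatcgagatctcccctgaat
Vcam1, Ia_low, 8 reads: GACGTGTGCTGCTATTGGCTGTGACTCCCC
On GRCm38 these lie on the minus strand at chr3:116125966-116125990 (coding, exon 3), chr3:116110788-116110813 and chr3:116110758-116110778 (3′ UTR, exon 9), chr3:116128776-116128799 (coding, exon 2) and chr3:116120974-116121003 (coding, exon 5). Of the 4 Ia_low tags, 3 overlapped Ia_high tags of the gene.

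Mrc1, Mertk and C1qa are shown with the most-read Ia_high tag that crosses a splice junction (Mrc1 and C1qa) or the most-read tag (Mertk), and with every Ia_low tag found.
Mrc1, Ia_high, 10 reads: tatatgtcaaacacagactgacccttccc
Mrc1, Ia_low, 9 reads: cgtggtcctcctgattgtgataggtg
Mrc1, Ia_low, 7 reads: ggttcgggattgtggagcagatggaaggtc
Mertk, Ia_high, 10 reads: acattgaccctgactccatcattgcct
C1qa, Ia_high, 12 reads: ttGATCGGACCACGGAGGCAGGGACacc
C1qa, Ia_low, 5 reads: GATCGGACCACGGAGGCAGGGAC
The Mrc1 tags lie on the plus strand, across the junction of exons 23 and 24 (chr2:14316925-14319109), in exon 30 (chr2:14330983-14331008) and in exon 2 (chr2:14238458-14238487), all coding. The Mertk tag is coding, in exon 19 (chr2:128801354-128801380, plus strand). Both C1qa tags cross the junction of exons 1 and 2 in the 5′ UTR (minus strand), the Ia_high tag from chr4:136897838-136898766 and the Ia_low tag from chr4:136897841-136898764, and the Ia_low tag lies wholly within the Ia_high tag. No Ia_low tag of Mertk was found.

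Adgre1, C1qb, Spic and Hmox1 are shown because their Ia_low tags mostly or partly fell where Ia_high tags fell. Axl, with 8 of 18 Ia_low tags overlapping, is not shown. The Spic tag was picked for its overlap and is the least read of the 4 Ia_low tags on the main transcript. The most-read Spic tags in Ia_low, of 14 and 13 reads, had 0 bases covered in Ia_high.
Adgre1, 3 reads in Ia_high and 43 in Ia_low: TCACCGGTATAGACAAGACTGACAACC
Adgre1, 16 reads in Ia_high and 41 in Ia_low: TTGGCTGCTCCTCTTCTGGG
C1qb, 1 read in Ia_high and 24 in Ia_low: GTGGGGTGAGGTCTGGACACACC
Spic, Ia_low, 9 reads: AAACACTCGCTGAACTCTGGGGgcagag
Hmox1, Ia_low, 14 reads: ACCTTCCCGAACATCGACAGCCCCACC
The Adgre1 tags are coding, in exon 16 (chr17:57447996-57448022) and exon 1 (chr17:57358737-57358756) on the plus strand. The C1qb tag is coding (chr4:136882274-136882296, minus strand, exon 2), and so is the Hmox1 tag (chr8:75097207-75097233, plus strand, exon 3). The Spic tag (chr10:88675920-88675947, minus strand, exon 7) lies past the coding stretch of the transcript used, nt 143 to 484 of 1356. Whether other Spic transcripts code there was not examined, so its 3′ UTR label holds for that transcript only.

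The comparison asked which of these genes differed between cells with high and low Ia. Vcam1, Mrc1, Mertk and C1qa had fewer tags in Ia_low, Vcam1 by 11.1-fold. Axl, C1qb, C1qc, Spic and Hmox1 were not separated from equal shares at these tag counts. Adgre1 stood on the other side, with a ratio of 1.64. Levels are distinct tags per 1000000 assigned tags. A gene was called lower or higher when its level differed at least 2-fold, with a 95% exact (Clopper-Pearson) interval that excluded 1 and at least 10 tags in both libraries together. By this rule 4 of the 10 genes were lower, 0 higher and 6 neither. Among all 6933 genes with 10 or more tags, 8.52% were lower (591 genes) and 6.35% higher (440 genes). By the ratio of reads alone, with no interval, 5 of the 10 genes were at least 2-fold lower (Mertk and C1qc with 0 Ia_low reads) and 0 higher, where 20.3% of all genes were lower and 11.5% higher. The median log2 ratio, Ia_low over Ia_high, was -0.50 for the 10 genes, with genes at 0 set to a floor of 3 tags, and -0.14 for all 6933, with quartiles of -0.73 and 0.42. There was 1 library per population, so no test between populations was run and no replicate check exists. Reads were amplified without molecular identifiers, and intervals and floors cover counting error only. In sorted populations, fewer macrophages and less of these mRNAs per cell cannot be told apart.

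The split of calls over all genes moved with the scaling: 446 lower and 574 higher when centred on the median gene, and 1856 lower and 165 higher when scaled to all distinct tags of each library. These scalings shifted every log2 ratio by 0.14 and by -0.63. Vcam1, Mrc1, Mertk and C1qa were called lower under both. Axl and C1qc joined them when scaled to all distinct tags, with log2 ratios of -1.16 and -1.09 (a bound for C1qc).

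Vcam1 encodes the adhesion molecule that holds cells bearing integrin α4β1, and it had the most tags of the 10 genes in Ia_high. There were 134 Vcam1 tags in Ia_high, a level of 419 (interval 351 to 496), and 5 in Ia_low, a level of 37.8 (12.3 to 88.1). The 11.1-fold difference had an interval of 4.63 to 34.7, and by reads (826 and 40) it was 16.5-fold. The 2 intervals of the level do not overlap, and the most-read tag held only 3.03% of the Ia_high reads of the gene. Tags that overlapped were next merged into islands, so that a stretch read many times counted once, which left 38 islands in Ia_high and 4 in Ia_low. Vcam1 was called lower under all 18 alternative settings, from 4.92-fold with islands to 17.2-fold when scaled to all distinct tags.

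Adgre1 encodes F4/80, the classical mouse macrophage surface antigen, an adhesion G protein-coupled receptor that is also present on monocytes. It had 103 tags in Ia_high, a level of 322 (263 to 390), and 70 in Ia_low, a level of 529 (412 to 668). The ratio of 1.64 had an interval of 1.20 to 2.25 and fell short of 2-fold. Its log2 ratio lay above 0 under all 18 alternatives, from 0.09 when scaled to all distinct tags to 1.05 among tags of 20 to 23 nt. Set against Adgre1 inside each library, a comparison that needs no scaling, Vcam1 tags were 130% of Adgre1 tags in Ia_high and 7.14% in Ia_low. Against Axl they were 213% and 27.8%. The size depends on the reference: the ratio of these shares, Ia_low over Ia_high, was 0.055 with Adgre1 and 0.131 with Axl. Vcam1 lay below equal shares and Adgre1 above, and only Vcam1 passed the call.

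**Figure D1:**
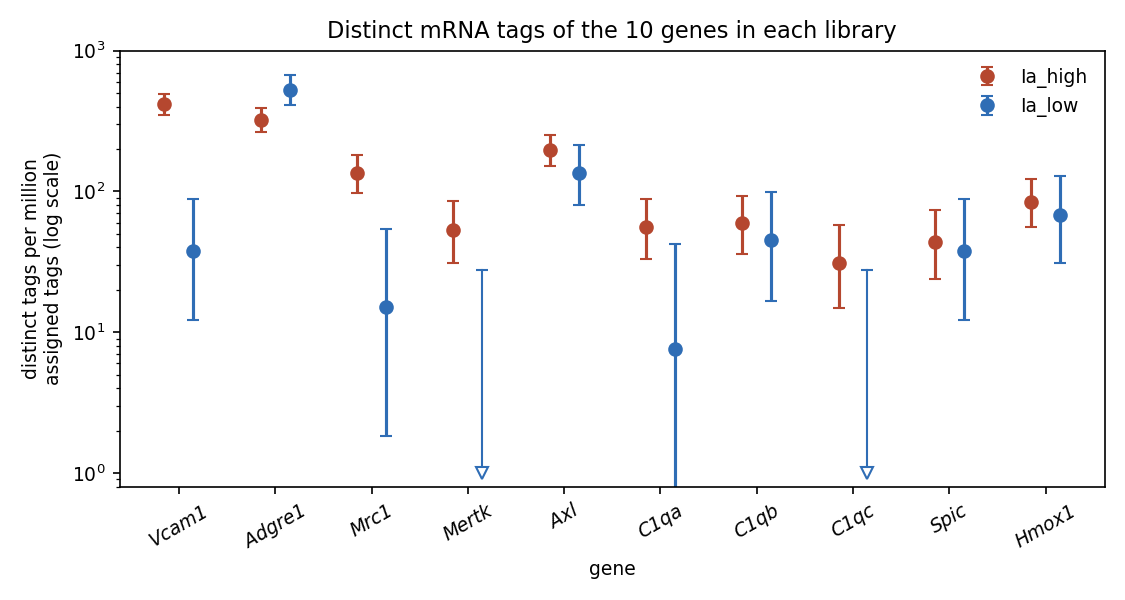
Level, in distinct tags per 1000000 assigned tags (log axis), of each gene in Ia_high (red) and Ia_low (blue), 1 library each, with bars for the exact 95% counting interval; an open triangle marks 0 tags and its line ends at the upper limit, and the bar of C1qa in Ia_low runs below the axis. Vcam1 stood at 419 and 37.8 and Adgre1 at 322 and 529.

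Mrc1 encodes the mannose receptor (CD206), which takes up mannose-bearing glycoproteins. There were 43 Mrc1 tags in Ia_high, a level of 134 (97.2 to 181), and 2 in Ia_low, a level of 15.1 (1.83 to 54.6). The 8.89-fold difference had an interval of 2.32 to 75.8, wide because only 2 Ia_low tags lay behind it. None of the Mrc1 tags was shared by the libraries, and the 31 islands of the gene held tags of 1 library each. Among tags of 20 to 23 nt, with 19 in Ia_high and 0 in Ia_low, the bound was 1.72-fold and the call was lost; it was kept under the other 17 alternatives.

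The receptor kinases for apoptotic cells were Mertk and Axl. Mertk had 17 tags in Ia_high, a level of 53.1 (30.9 to 85.0), and 0 in Ia_low, where a floor of 3 tags corresponds to a level of 22.7. Against that floor Mertk was 2.34-fold lower in Ia_low. The exact 95% interval reached down to 1.71-fold, so the 2-fold call rests on the floor. By tags of 26 to 30 nt alone (9 and 0) the difference against the floor was 1.61-fold. Axl had 63 tags in Ia_high, a level of 197 (151 to 252), and 18 in Ia_low, a level of 136 (80.6 to 215). Its ratio of 0.691 had an interval of 0.385 to 1.18, so a difference was not detectable at these tag counts. Axl stayed short of the call in 17 of 18 alternatives, all but the scaling to all distinct tags.

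C1q is built from A, B and C chains, encoded side by side on chromosome 4. C1qa, the A chain, had 18 tags in Ia_high, a level of 56.2 (33.3 to 88.9), and 1 in Ia_low, a level of 7.55 (0.191 to 42.1). The ratio was 7.44-fold lower with an interval of 1.18 to 310, so that a single tag decides its size. C1qb, the B chain, had 19 and 6 tags, levels of 59.3 (35.7 to 92.7) and 45.3 (16.6 to 98.7), with a ratio of 0.764 (0.250 to 1.99). C1qc, the C chain, had 10 tags in Ia_high, a level of 31.2 (interval up to 57.4), and 0 in Ia_low, and its interval for the ratio, up to 1.08, included equal shares. In Ia_high the levels of C1qa and C1qb lay close together and that of C1qc lay lower, with overlapping intervals, and in Ia_low the chains had 6 tags at most, too few to order them. By reads C1qb had 91 and 73, while C1qa had 90 and 5 and C1qc 51 and 0. Summed, a step added after the values had been seen, the chains had 47 and 7 tags and were 2.78-fold lower (1.25 to 7.28).

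Spic encodes the transcription factor Spi-C, and Hmox1 encodes heme oxygenase, which opens the heme ring and frees its iron. Spic had 14 tags in Ia_high, a level of 43.7 (23.9 to 73.4), and 5 in Ia_low, a level of 37.8 (12.3 to 88.1), a ratio of 0.864 (0.243 to 2.54). Hmox1 had 27 tags in Ia_high, a level of 84.3 (interval from 55.6), and 9 in Ia_low, a level of 68.0 (31.1 to 129), a ratio of 0.806 (0.334 to 1.77). For both genes the intervals of the levels overlapped widely, and the bounds of the ratios include a 2-fold difference downward. Their log2 ratios crossed 0 with the setting, from -0.84 to 0.29 for Spic and from -1.29 to 0.36 for Hmox1. Heme oxygenase can be induced by stress in many cell types.

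**Figure D2:**
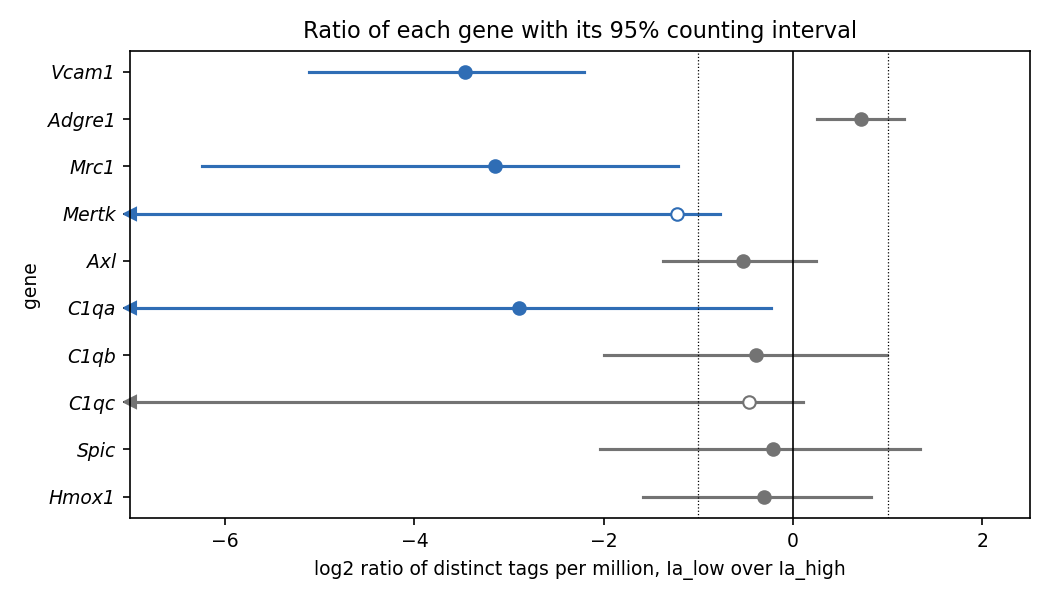
Log2 ratio of levels, Ia_low over Ia_high, for each gene, with its exact 95% counting interval; open circles are bounds for genes with 0 Ia_low tags, arrowheads mark intervals that run past the axis, blue marks the genes called lower, and dotted lines mark 2-fold. The intervals of Vcam1 and Mrc1 lie wholly beyond 2-fold lower, and that of Adgre1 lies above 0.

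The number of tags behind a gene sets what the rule can call. Among all genes with 10 to 19 tags, the range of Spic, C1qa, C1qc and Mertk, 3.28% were called lower. Among those with 20 to 49 tags, the range of Mrc1, C1qb and Hmox1, the share was 10.2%, and with 50 to 199 tags, the range of Vcam1, Axl and Adgre1, it was 11.2%. With at least 20 tags demanded, only Vcam1 and Mrc1 of the 10 genes were called lower. All 10 genes summed took 0.140% of Ia_high tags (0.127 to 0.154) and 0.0876% of Ia_low tags (0.0724 to 0.105), a ratio of 0.626 (0.506 to 0.770). This sum depended on Vcam1 and Adgre1: without Vcam1 the ratio was 0.855 (0.682 to 1.06), and without Adgre1 it was 0.322 (0.232 to 0.440). Without both it was 0.470 (0.328 to 0.659).

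**Figure D3:**
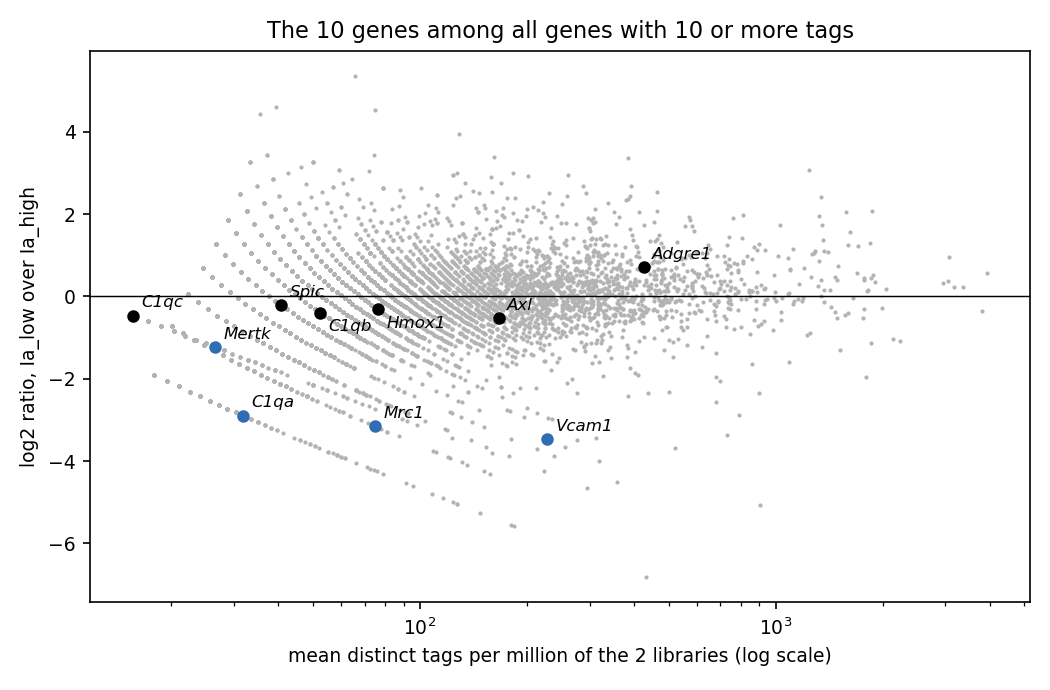
Log2 ratio, Ia_low over Ia_high, against the mean level of both libraries (log axis) for the 6933 genes with 10 or more tags (grey), with the 10 genes marked, those called lower in blue; a gene at 0 in a library is drawn at the bound of its floor of 3 tags. Vcam1 lies at -3.47, Mrc1 at -3.15 and Adgre1 at 0.72.

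Per kb of the main transcript, Vcam1 and Adgre1 had the highest levels of the 10 genes in Ia_high, 110 (interval 91.2 to 131) and 99.4 (81.1 to 121). C1qb, C1qa and Hmox1 followed at 54.5, 54.1 and 53.8, then Axl at 46.1, C1qc, Spic (25.3), Mrc1 and Mertk (12.3). Each neighbouring pair in this order had overlapping intervals, so only genes farther apart in it, such as Vcam1 and C1qb (32.8 to 85.2), were separated. In Ia_low the order of the level per kb was Adgre1 (163), Hmox1 (43.3), C1qb (41.7), Axl (31.9), Spic (22.3), Vcam1 (8.71), C1qa (7.26) and Mrc1 (2.81), with Mertk and C1qc at 0. There Adgre1 (127 to 206) stood apart from Hmox1 (19.8 to 82.3), and each pair of neighbours after it overlapped. Per kb of all annotated exons, Vcam1 stood at 47.2 in Ia_high, below Adgre1 (99.4), C1qb (54.5), C1qa (54.1) and Hmox1 (48.2). Its place thus depends on the length used. These levels count pieces of mRNA and are not mRNA copy numbers.

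Some tags crossed splice junctions. Of 550 distinct tags of the 10 genes, 55 crossed an exon junction, 47 of those seen in Ia_high and 9 of those seen in Ia_low, with 21 of the 55 in Adgre1 and 9 in Mrc1. In antisense, under the same matching, the 10 genes had 0 tags in either library, while all protein-coding genes together had 5009 and 2508, or 1.54% and 1.86% of sense and antisense tags. In Ia_high, 70.3% of tags of the 10 genes fell in coding sequence and 94 of 448 in 3′ UTRs, against shares of 51.0% and 35.5% for all assigned tags. In Ia_low the shares were 73.3% and 21.6%, against 50.5% and 35.3%. These shares were not set against coding length, and its part in them was not tested. Coding sequence ran from nt 36 to 2831 of 3238 in Adgre1, from 122 to 4492 of 5374 in Mrc1 and from 322 to 2541 of 3469 in Vcam1. For Spic the 3′ UTR is that of the transcript used, which codes only from nt 143 to 484 of 1356. Individual genes differed: all but 1 of 45 Mrc1 tags lay in coding sequence, while 25 of 63 Axl tags in Ia_high lay in the 3′ UTR. C1qa had 6 of 18 Ia_high tags, and its 1 Ia_low tag, in the 5′ UTR.

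How far the tags of both libraries fell at the same places differed by gene. For Adgre1, 64 of 70 Ia_low tags overlapped an Ia_high tag and 20 of 40 islands held tags of both libraries. The largest, at 547 to 599 nt of the transcript, held 13 Ia_high and 9 Ia_low tags. For Hmox1 8 of 9 Ia_low tags overlapped Ia_high tags, for Axl 8 of 18 and for C1qb 4 of 6. For Spic the count was 2 of 4 and for Mrc1 0 of 2. Over the 10 genes it was 90 of 114, mostly from Adgre1. Identical tags were fewer: 14 were in both libraries, 3.13% of the Ia_high and 12.1% of the Ia_low tags of these genes, against 7.74% and 18.7% for all assigned tags, and 11 of the 14 were Adgre1 tags.

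**Figure D4:**
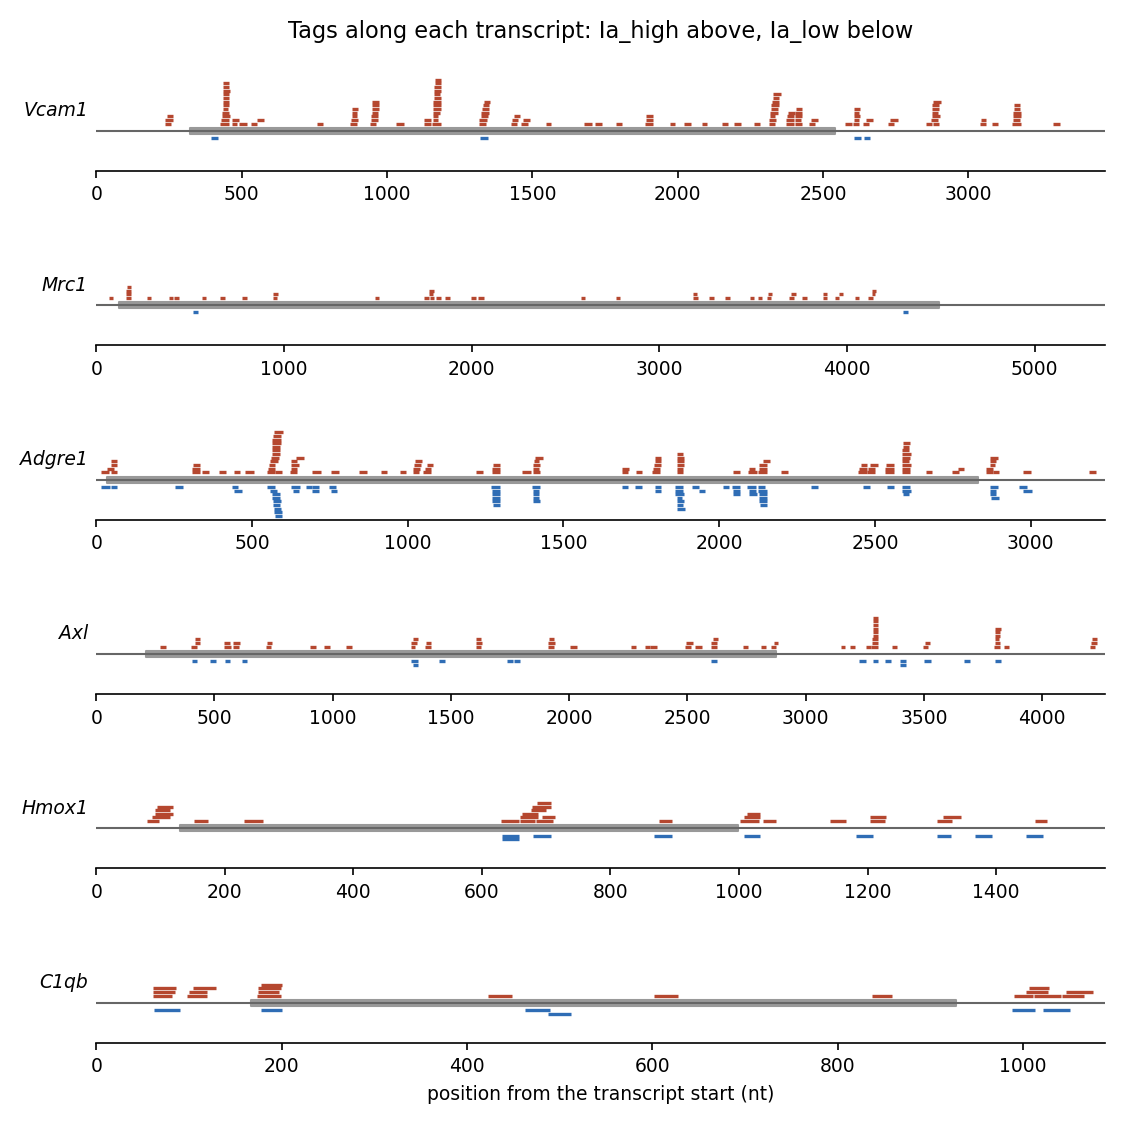
Tags along the main transcript of 6 genes, by position from the transcript start in nt; bars above the line are Ia_high tags and bars below are Ia_low tags, stacked where they overlap, and the grey box is the coding sequence. Adgre1 shows stacks at the same positions in both libraries, while Vcam1 shows 4 Ia_low tags against 122 in Ia_high.

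C was the most frequent last base, in these genes and in all. It was the last base of 40.4% of the Ia_high tags of these genes and of 46.6% of the Ia_low tags, against 37.2% and 38.5% for all assigned tags, although C made up 22.7% and 23.1% of the bases of all assigned tags. T was the opening base of 35.5% and 36.2%, against 37.8% and 37.2%. The Mrc1, Adgre1 and C1qb tags printed above that end in CCC or ACC are examples. The median length was 25 nt in Ia_high and 26 nt in Ia_low, both for these genes and for all. Short tags of 20 to 23 nt made up 42.0% of the Ia_high and 30.2% of the Ia_low tags of these genes (38.8% and 25.5% of all). The part of this length difference in the ratios was not tested beyond the length-restricted settings, where Vcam1 had log2 ratios of -3.93 (20 to 23 nt) and -3.29 (24 to 30 nt). A tag of these genes had a median of 5 reads in Ia_high and 10 in Ia_low.

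Other genes of the macrophage went both ways. In a list of 20 further spleen macrophage genes, 10 had 10 or more tags, of which 1 was lower, 4 higher and 5 neither (median log2 ratio 0.79). Slc40a1, which encodes the iron exporter ferroportin, had 72 tags in Ia_high against 1 in Ia_low and was 29.8-fold lower (5.18 to 1192). Csf1r, the growth factor receptor shared by macrophages and monocytes, had 200 and 275 tags, a ratio of 3.33 (2.76 to 4.01). Cd68, a lysosomal protein of phagocytes, had 53 and 25 tags (ratio 1.14, 0.679 to 1.87). Clec4f, a marker of liver macrophages, and Folr2 were at 0 in both libraries. Cd163, Cd5l, Fcna, C6, Epor and Cd209b were at 0 in Ia_low alone, where 0 tags allow a level of 22.7, and had 12, 6, 13, 8, 2 and 3 tags in Ia_high.

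The pathways around the 10 genes were read in the same way. Of 17 measured genes of heme and iron handling, 1 was lower (Slc40a1), 1 higher and 15 neither (median 0.08). Slc11a1, the phagosomal metal transporter NRAMP1, was the higher one (40 and 62 tags, ratio 3.75, 2.48 to 5.73). Bach1 and Nfe2l2, the repressor and the activator of Hmox1, had ratios of 1.74 (1.32 to 2.29) and 1.97 (1.27 to 3.06), short of the call, and Blvra, the biliverdin reductase that follows heme oxygenase, had 10 and 2 tags. Fth1, a ferritin chain, had 433 and 268 tags (ratio between 1.28 and 1.75), and the heme exporter gene Flvcr1 93 and 20 (ratio 0.520). Blvrb, another biliverdin reductase, had 5 and 2.

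Complement genes other than C1q had 1 lower, 5 higher and 4 neither among 10 measured (median 0.93). C1ra, a protease that C1q carries, had 0 tags in Ia_high and 1 in Ia_low, and C1s1, its partner, 0 in both. Lrp1, a scavenger receptor also in the list of apoptotic cell uptake, had 197 and 336 tags (ratio 4.12, 3.45 to 4.94), and the complement receptor gene Itgam 36 and 39 (ratio 2.62, 1.62 to 4.24). Itgax, which encodes CD11c itself, had 322 and 79 (ratio 0.593, 0.458 to 0.761), and the chaperone gene Calr 215 and 84 (ratio 0.945).

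For the uptake of apoptotic cells, 0 of 17 measured genes were lower, 5 higher and 12 neither (median 0.86). Gas6 and Tyro3, a bridging protein and the remaining kinase of the MERTK and AXL family, were at 0 in both libraries, and Pros1, the other bridging protein, had 8 and 6 tags (ratio 1.81, 0.519 to 5.96). Cd36, a scavenger receptor, had 139 and 155 tags (ratio 2.70, 2.13 to 3.42). The mitochondrial carrier gene Ucp2 (499 and 284, ratio 1.38) and Dock2 (189 and 100, ratio 1.28), an activator of Rac, were not called.

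Among adhesion partners of Vcam1, Itga4 and Itgb1, the chains of its receptor, had ratios of 1.14 (0.988 to 1.31) and 1.46 (1.12 to 1.89), from 613 and 289 and from 159 and 96 tags. The integrin genes Itgal (230 and 398, ratio 4.18) and Itgb2 (179 and 161, ratio 2.18) were higher. Of 11 measured genes of this list 2 were lower, 3 higher and 6 neither (median 0.38). Madcam1 was at 0 in both libraries. The ligand of the pair and its receptor thus had different ratios in these libraries.

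Among relatives of Mrc1 and other endocytic lectins, 2 of 7 measured genes were lower, 2 higher and 3 neither (median 0.67). Ly75, the DEC-205 receptor of the same family, had 42 and 2 tags, that is 8.68-fold lower (2.26 to 74.0). Cd209a had 85 and 9 (3.91-fold lower, 1.96 to 8.83), Clec4a1 78 and 75 (ratio 2.33, 1.67 to 3.23) and Clec12a 41 and 27 (ratio 1.59). Mrc2, the nearest relative by name, had 1 and 0 tags. Of other adhesion G protein-coupled receptor genes, 2 were higher and 2 lower of 4 measured (median -0.26). The 2 nearest to Adgre1 by name were higher, Adgre4 (ratio 3.77, 2.92 to 4.88) and Adgre5 (ratio 2.15, 1.80 to 2.56). Adgrg5 (3.10-fold, 1.69 to 6.22) and Adgrg6 (14.9-fold, 2.51 to 604, from 36 and 1 tags) were lower.

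Among regulators of macrophage and dendritic cell fate, 4 of 20 measured genes were lower, 6 higher and 10 neither (median 0.37). Spi1, which encodes PU.1, the close relative of Spi-C, had 70 and 58 tags and was higher (ratio between 1.39 and 2.88), and Spib, the remaining member of that family, had 22 and 1 (9.10-fold lower, 1.47 to 375). Nr4a1 (935 and 453, ratio 1.17), Notch2 (300 and 226, ratio 1.82) and Irf8 (199 and 49, ratio 0.595) were not called, and Zeb2 was higher (138 and 136, ratio 2.38, 1.87 to 3.04). Of the PU.1 family, then, Spi1 was called higher at the edge of the 2-fold cutoff, Spib lower and Spic, with 19 tags in all, neither.

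Markers of other cells moved with the same contrast, and their part in these results was not tested. Dendritic cell genes of the cDC1 list were lower in 7 of 8 measured cases, with summed levels of 4945 in Ia_high and 1284 in Ia_low for the list of 9, and Xcr1, Cadm1, Tlr3 and Batf3 were at 0 in Ia_low. Batf3 had only 5 tags in Ia_high. Of the same list, Ia_low kept 97 tags of Wdfy4 (915 in Ia_high), 49 of Irf8 and 21 of Naaa (122 in Ia_high), and it had 79 tags of Itgax, the CD11c gene. In the cDC2 list 3 of 7 were lower and 0 higher (levels 2705 and 2999). Clec4a4, Esam and Mgl2 were at 0 in Ia_low but had only 5, 11 and 2 tags in Ia_high. Genes of Ly6C-low monocytes, among them Csf1r and Adgre4 named above, were higher in 12 of 14 (levels 7050 and 16831), with Apoc2 at 0 in both. Ly6C-high monocyte genes were higher in 4 of 8 (levels 587 and 1292) and neutrophil genes in 1 of 2 (levels 116 and 370, with Ltf, Camp and Ly6g at 0 in both).

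Stromal, red cell and lymphocyte markers were sparse. Of 20 endothelial and stromal genes, 13 were at 0 in both libraries, Pdgfra, Col1a1, Col3a1, Tek and Tie1 among them, and the list summed to 13 tags in Ia_high and 3 in Ia_low. Erythroid genes summed to 21 tags in Ia_high and 0 in Ia_low over 9 genes, with Hba-a1 at 0 in both, and the source of these tags was not tested. B cell genes had 81 and 9 tags (1 of 3 measured lower), T cell genes 38 and 1, of which 32 were Tcf7 tags, with 1 of 1 measured gene lower and Cd3d, Cd3e, Cd3g, Cd247, Lck and Themis at 0 in both. NK cell genes had 18 and 10 tags (0 of 1 called, Klrb1c, Gzmb and Klra8 at 0 in both) and plasmacytoid dendritic cell genes 138 and 53 (2 of 4 lower, 1 higher, Klk1 at 0 in both). Of 24 genes of tissues outside the spleen, 19 were at 0 in both libraries, and 47 of the 48 Ia_high tags and 52 of the 55 Ia_low tags came from Mbp, which is also expressed in blood cells.

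**Figure D5:**
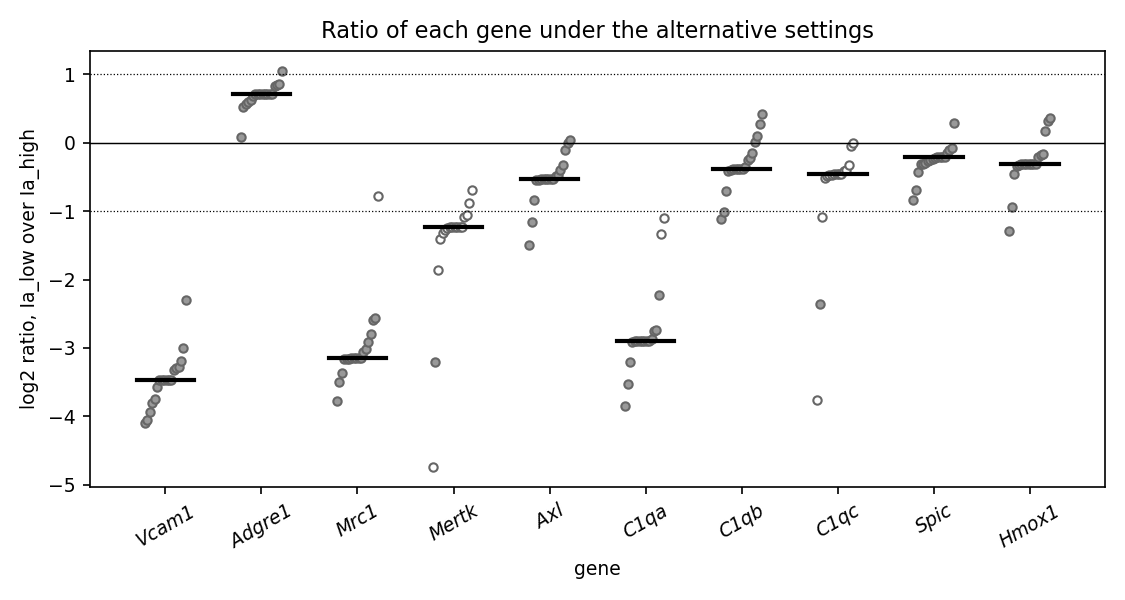
Log2 ratio of each gene, Ia_low over Ia_high, as reported (black bar) and under up to 18 alternative settings (circles; open where Ia_low had 0 tags, a bound), with dotted lines at 2-fold. All Vcam1 circles lie below -1, all Adgre1 circles lie above 0, and those of Spic, Hmox1, C1qb and Axl fall on both sides of 0.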

How the data were processed

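Per the labels' protocols, spleen CD11c+ cells were sorted by Ia, small RNA was gel-purified, ligated to adaptors, amplified for 12 cycles and sequenced. The deposited files give counts of reads per distinct sequence, unscaled. How adaptors were trimmed or reads filtered, and any genome build, is not given in the sources used here. Totals were 16388303 reads and 1185709 distinct sequences for Ia_high, and 13739811 and 758783 for Ia_low.

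Identity over the whole tag (20 to 30 nt) to GENCODE M21 transcripts (GRCm38) was required. Each tag was counted once per library, per 1000000 assigned tags, and reads were an alternative (2053294 and 1642519 assigned). Region and position refer to the coding transcript with most tags of the gene. For Spic that transcript codes only from nt 143 to 484 of 1356, and its region labels hold for it alone. Calls and floors are as given in the report. Versions were Python 3.11.15, numpy 2.4.6 and scipy 1.17.1. The calls and intervals were tested on simulated data.

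The 10 genes, the 20 gene lists and the named genes (all 10, each list's 4 genes of most tags, direct partners of the 10, markers at 0) were chosen with earlier results of these data known. Of 298 list symbols 294 matched. Itgad, Fcna, Cd163, Siglec1, Msr1, C3 and Cfp are named in the closing section outside that rule, after their values were seen. Some list genes that this rule names are not reported here.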

Additional observations from a re-analysis of the deposited data

Results flagged for a closer look

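Tags longer than 30 nt were outside the comparison but held pieces of these genes. Adgre1 had 18 distinct tags of 31 to 36 nt in Ia_low, against 2 in Ia_high, and Vcam1 had 4 in Ia_high, against 1 in Ia_low. Both counts stood above the floor of 3 tags set for a count of 0. Over all protein-coding genes there were 7784 such tags in Ia_high and 36185 in Ia_low.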

How the results depend on the processing

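The count of 4 genes lower and 0 higher became 1 lower (Vcam1) and 1 higher (Adgre1) with tags of 20 to 23 nt (4.44% and 5.83% of all genes), 1 higher (Adgre1) and 4 lower with a 1.5-fold threshold (8.91% and 11.4%) and 2 lower with a minimum of 20 tags (10.6%). It was 6 scaled to all distinct tags (26.8%), 5 by reads (25.7%), and 3 with at least 5 reads (8.46%), at 24 to 30 nt (8.05%), at 26 to 30 nt (7.69%), at 3-fold (5.31%) and with islands (4.87%). The cause was not tested, beyond the smaller number of tags in the shorter length class and of genes under the higher minimum. By reads the 10 genes took 0.121% of Ia_high. Vcam1 was called lower in 18 of 18 alternatives, Mrc1 in 17 of 18, C1qa in 14 of 17 and Mertk in 13 of 17. None reversed where a ratio was given. No ratio was given for C1qa (3 and 1 tags), C1qc (4 and 0) and Mertk (6 and 0) at 20 to 23 nt. The same holds for C1qc at 26 to 30 nt (5 and 0), as tags were few. Out of 124090 and 33764 assigned tags at 20 to 23 nt, the C1qa counts do not point to a lower share in Ia_low. Over all genes, 591 lower and 440 higher became 2649 and 1652 by reads, 179 and 235 at 20 to 23 nt, 368 and 234 at 3-fold and 280 and 204 with islands. The genes measured were not the same set. They numbered 6933 as reported and at 3-fold, 10291 by reads, 4032 at 20 to 23 nt and 5749 with islands. Islands, tags of 20 to 36 nt and tags of 26 to 30 nt were chosen after seeing the data. Limiting tags to 1 genome match was not run. No paired analysis was possible because each population had 1 library. The number of tags limits the genes with under 20 in all: Spic, C1qa, C1qc and Mertk. With Ia_high thinned to the reads of Ia_low, there were 315436 assigned tags in Ia_high against 132375 in Ia_low. The same 4 genes were then called lower (8.45% of all genes). An assigned tag had on average 6.41 reads in Ia_high and 12.4 in Ia_low.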

Other observations

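Further macrophage and complement genes, named after their values were seen, went both ways. Itgad, the integrin chain CD11d that can bind VCAM-1, had 22 tags against 0, lower in Ia_low by at least 2.27-fold (exact 95% limit). Fcna, which encodes ficolin A, had 13 and 0 (exact limit 1.26-fold lower), and the hemoglobin scavenger receptor gene Cd163 had 12 and 0 (exact limit 1.15-fold lower), both short of the call. Siglec1, a marker of metallophilic macrophages of the marginal zone, had 12 tags in Ia_high and 13 in Ia_low, a ratio of 2.62 (1.10 to 6.28), and Msr1, a scavenger receptor, 3 and 7 (ratio 5.64, 1.29 to 33.8). C3, the central complement protein, had 17 and 33 tags (ratio 4.69, 2.54 to 8.99), and Cfp, which encodes properdin, 59 and 7 (3.49-fold lower, 1.59 to 9.04).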
